A study of Mus musculus with 4 samples.

Results

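The genes described here are 8 of the 21739 gene symbols in the matrices: the interleukin-1 ligands Il1a and Il1b, the related ligand Il18, the receptor antagonist Il1rn, the signalling receptor Il1r1, its accessory chain Il1rap, the decoy receptor Il1r2 and the inflammasome sensor Nlrp3. They were chosen by name, and each had a row in all 4 matrices. IL-1α and IL-1β bind IL-1R1, which then recruits IL-1RAcP (the product of Il1rap) and signals to NF-κB. The antagonist occupies the same receptor without recruiting that chain, and the decoy IL-1R2 captures the ligand without signalling. NLRP3 assembles an inflammasome in which caspase-1 cuts the precursors of IL-1β and IL-18, so transcript levels do not measure the secreted proteins. In skin wounds IL-1 is known as an early alarm signal, and the balance of ligand and antagonist limits the inflammation that follows.

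Cells from periwound skin of C57/BL6j mice aged 6 weeks were profiled by single-cell RNA sequencing on day 7 after wounding. Mice of the hucMSC-Exo group received repeated injections around the wound edge, each of 100 µg of exosomes from human umbilical cord mesenchymal stem cells. Control mice received buffer in equal volume. Each group had 2 libraries of 1 mouse each, and values in a run of 4 below give both Control libraries (1, then 2) followed by both hucMSC-Exo libraries (1, then 2). The labels disagree on the tissue, with a tissue field that lists gut segments and a cell type field for skin, and letters in the deposited names pair the libraries differently from the titles. The group of each library was taken from its title alone.

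The matrices held 7178 cells, counted in UMIs (unique molecular identifiers, each standing for 1 captured transcript). These are fewer cells than the study reports, so they may be a subset of the cells profiled. The study's methods state that immune cells (Ptprc+) were separated computationally, and 84.0% of the deposited cells held a Ptprc UMI. Totals and class shares below describe the deposited cells alone. Of the 7178 cells, 6443 were kept for having 200 to 3000 genes and no more than 10% of UMIs from mitochondria. The kept cells were 952, 2074, 1416 and 2001 per library, with 4779405 to 11243740 UMIs. Between 0 and 2 barcodes were shared by any pair of libraries. Cells were gated by marker genes into classes that are called "-like" because no deposited annotation was used, and 5217 cells received a class. Of these, 896 were neutrophil-like (39, 303, 76 and 478), 1218 monocyte/macrophage-like (178, 488, 228 and 324), 92 basophil-like, 31 dendritic-like, 419 IL-17 γδ T-like, 1158 dendritic epidermal T-like (DETC-like) and 824 αβ T-like. The monocyte/macrophage-like cells were divided into 318 monocyte-like, 731 C1q macrophage-like and 147 osteoclast-like macrophage cells. None of the 8 genes was used in gating. Another 1226 cells stayed unassigned and were led by Napsa, Cst3 and H2-Ab1. The weak keratin-marker (322 cells) and fibroblast-marker (96 cells) gates held CD45 (Ptprc) transcripts in 75.5% and 69.8% of their cells, and no level is read from them.

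The promoters of 4 of the genes are printed: Il1b, Il1rn and Il1r2, which carry contrasts described below, and the scarce Il1a. Il1rap and Il1r1 carry contrasts as well and are not printed. Il1a and Il1b are neighbours on chromosome 2 separated by 54.6 kb, and Il1rn lies on the same chromosome. Each sequence is the 250 bases before the annotated start in RefSeq, build GRCm38.p6, on the gene's strand. Capitals mark matches to the letters TATAAA, the core promoter element also named the TATA box. They mark GAGGAAG, read by the myeloid factor PU.1, and TGANTCA, read by AP-1, as well. The kappa-B motif, with GGGA and TTCC set 2 bases apart, and TTGCNNAA for C/EBP were also searched for, and all 5 motifs were searched on both strands.
Il1a (chr2:129309973-129310222, minus strand): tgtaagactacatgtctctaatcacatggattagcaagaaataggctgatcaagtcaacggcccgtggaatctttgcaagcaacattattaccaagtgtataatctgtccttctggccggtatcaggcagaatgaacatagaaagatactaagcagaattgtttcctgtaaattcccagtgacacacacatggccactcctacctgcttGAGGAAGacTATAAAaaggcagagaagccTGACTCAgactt
Il1b (chr2:129371140-129371389, minus strand): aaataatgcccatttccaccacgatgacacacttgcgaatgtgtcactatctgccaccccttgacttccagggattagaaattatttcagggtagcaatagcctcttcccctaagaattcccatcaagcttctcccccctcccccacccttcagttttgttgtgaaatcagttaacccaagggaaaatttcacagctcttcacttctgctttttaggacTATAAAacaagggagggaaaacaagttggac
Il1rn, first of 3 annotated starts (chr2:24336610-24336859, plus strand): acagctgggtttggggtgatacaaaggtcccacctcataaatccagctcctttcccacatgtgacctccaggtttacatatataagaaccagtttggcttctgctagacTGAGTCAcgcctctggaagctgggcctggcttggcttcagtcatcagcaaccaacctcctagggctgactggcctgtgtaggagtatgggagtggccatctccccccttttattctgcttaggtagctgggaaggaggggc
Il1r2 (chr1:40085843-40086092, plus strand): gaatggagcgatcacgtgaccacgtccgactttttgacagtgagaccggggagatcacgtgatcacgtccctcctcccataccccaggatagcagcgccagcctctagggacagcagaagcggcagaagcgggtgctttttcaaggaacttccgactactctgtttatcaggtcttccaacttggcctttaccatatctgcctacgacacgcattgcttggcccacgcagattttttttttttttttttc
The TATA box began 32 bases before the start of Il1a and 31 bases before that of Il1b, and was present in 12.4% of 32851 mouse promoter windows. The Il1a window also held a PU.1 match, found in 10.6% of windows, and an AP-1 match, found in 6.75%. The first Il1rn window held an AP-1 match 141 bases before the start, and the Il1r2 window held none of the 5 motifs. The Il1r2 window lies inside the gene as the GENCODE annotation places it, with a start at base 40074079. The bases before that start were not searched. Over the 12 windows of the 8 genes, the kappa-B letters were found in 0 (1.21% of all windows) and the C/EBP letters in 1, that of Il1r1 (9.56% of all windows). These matches are letters in a window and show no binding. On chromosome 1, Il1r2 ends 99.8 kb before Il1r1 begins, and both lie on the plus strand.

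Il1b was by far the most abundant of the 8 transcripts, with 49041 UMIs in kept cells, against 11179 for Il1rn, 10309 for Il1r2, 3488 for Nlrp3, 1005 for Il1rap, 671 for Il1r1, 493 for Il18 and 176 for Il1a. These are UMI totals from 3′ ends and count molecules, not length. Monocyte/macrophage-like cells held 32.4% of the Il1b UMIs, neutrophil-like cells 22.6%, unassigned cells 24.3% and the 92 basophil-like cells 9.29%. In hucMSC-Exo 2 the order of the first 2 turned, with 23.6% in monocyte/macrophage-like and 35.3% in neutrophil-like cells. Il1rn had a different distribution, with 65.3% in monocyte/macrophage-like cells and 13.9% in neutrophil-like cells. Neutrophil-like cells held 22.7%, 67.3%, 39.0% and 72.4% of the Il1rap UMIs, and in Control 1 monocyte/macrophage-like cells held more (45.5%). Over all libraries neutrophil-like cells held 38.7% of the Il1r2 UMIs. The number of cells of each class differed between libraries, as given above. Of the Il1r1 UMIs, IL-17 γδ T-like cells held 36.8%, 25.7%, 20% and 43.7% and monocyte/macrophage-like cells 8.77%, 42.2%, 30% and 6.5%, so that the order of these classes turned in Control 2 and hucMSC-Exo 1.

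In neutrophil-like cells Il1b reached 10113, 5365, 6738 and 5070 UMIs per 1000000 UMIs of the class (CPM). In monocyte/macrophage-like cells it reached 1272, 2051, 1682 and 1755 CPM. Every neutrophil-like value lay above every monocyte/macrophage-like value. The log2 fold change was 2.33 ± 0.20 (SE, 4 libraries; edgeR's quasi-likelihood test with library as a block, Benjamini-Hochberg adjusted p = 2.59e-12). Neutrophil-like cells are small, with a median of 2126.5 UMIs against 7478, so levels per cell are given as well. A neutrophil-like cell carried on average 21.6, 12.3, 12.5 and 11.6 Il1b UMIs and a monocyte/macrophage-like cell 9.89, 15.8, 11.6 and 11.5. Relative to the rest of the transcriptome Il1b was therefore higher in neutrophil-like cells, while the number of captured molecules per cell was higher in 3 of 4 libraries, by little in both hucMSC-Exo libraries, and its ranges overlapped between the classes.

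At least 1 Il1b UMI was seen in 100%, 89.8%, 94.7% and 82.2% of neutrophil-like cells and in 59.0%, 56.4%, 56.1% and 63.6% of monocyte/macrophage-like cells. In αβ T-like cells, used as an upper mark for free RNA at a median of 4410 UMIs, the share was 1.06% to 1.71%. These 824 cells held 210 Il1b UMIs, whereas 419 IL-17 γδ T-like cells, at a median of 4754 UMIs, held 3. After each cell was thinned to 1000 UMIs, the shares became 97.4%, 79.7%, 87.8% and 72.6% of neutrophil-like cells and 39.8%, 37.5%, 36.5% and 44.7% of monocyte/macrophage-like cells. The gene was thus detected in most neutrophil-like cells but in a minority of equally deep monocyte/macrophage-like cells. The 10% of monocyte/macrophage-like cells with the most Il1b held 61.0% to 67.2% of that class's Il1b UMIs, compared with 31.1% to 45.2% in neutrophil-like cells. S100a8, a marker of the neutrophil gate, was at 27.9 to 87.5 CPM in the monocyte/macrophage gate and at 25048 to 52383 CPM in neutrophil-like cells. Its low level in the former is in part set by the gating, which leaves out cells with many neutrophil markers.

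**Figure D1:**
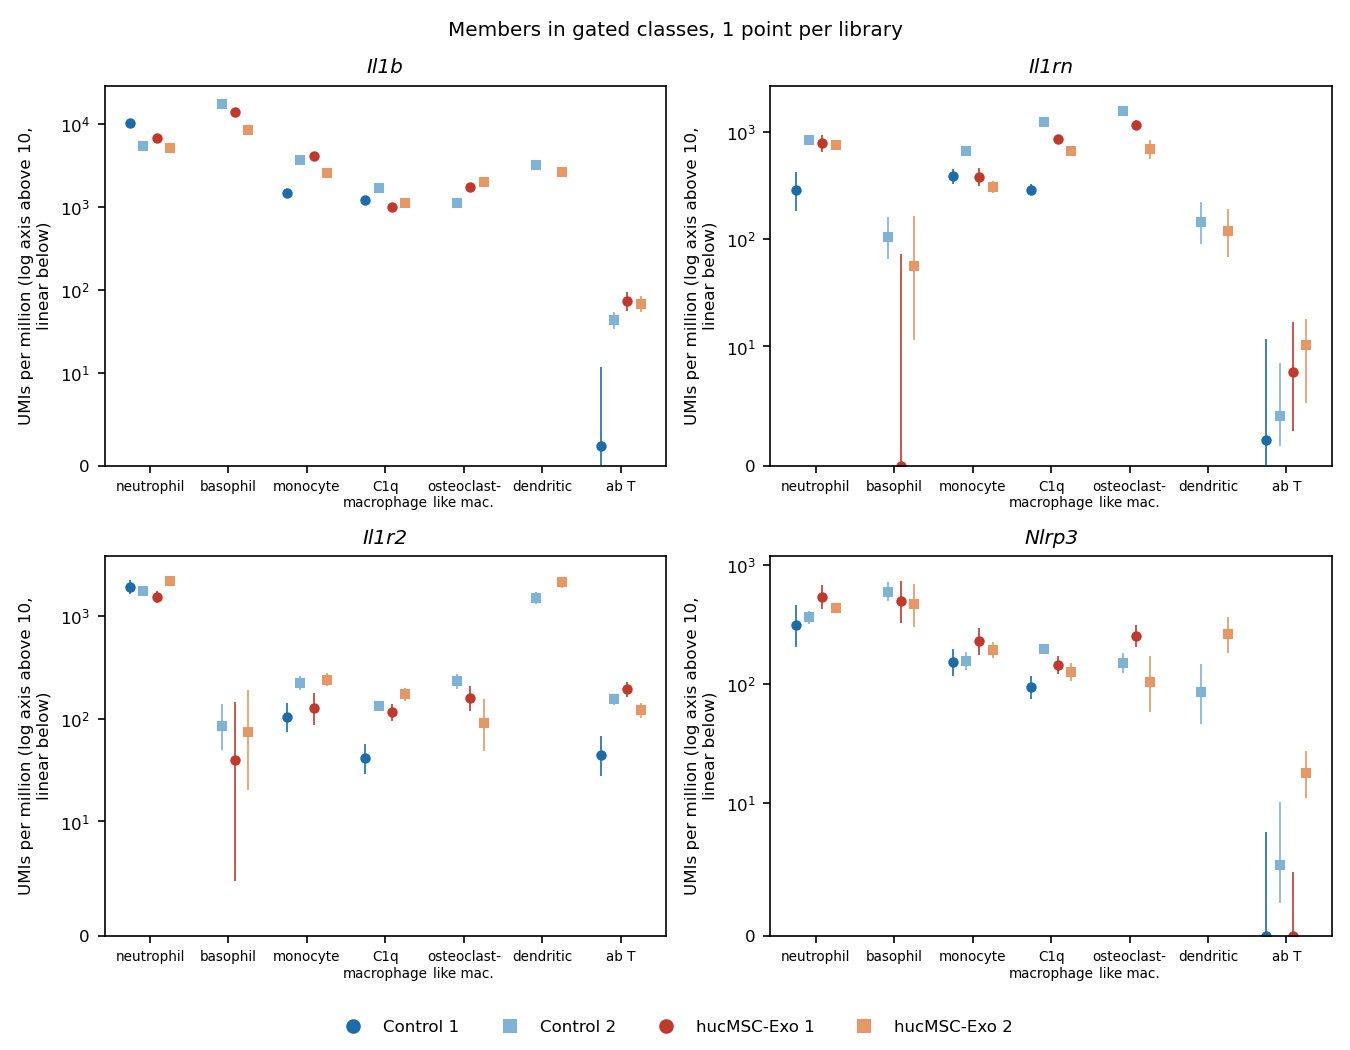
Level of Il1b, Il1rn, Il1r2 and Nlrp3 (CPM, log axis above 10 and linear below) in 7 gated classes, with 1 point per library and bars for the exact 95% Poisson interval. By means over libraries Il1b is highest in basophil-like and neutrophil-like cells, Il1rn in osteoclast-like and C1q macrophage cells, and Il1r2 in neutrophil-like and dendritic-like cells, but for Il1rn the order differs between libraries, with 756 CPM in neutrophil-like cells of hucMSC-Exo 2 above 660 CPM in C1q macrophage-like cells; classes with under 10 cells in a library are not drawn.

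Of the 8 genes, 7 passed the filter on low counts in the comparison of neutrophil-like with monocyte/macrophage-like cells, and 5 of those were higher in neutrophil-like cells, where 26.4% of all 6962 genes tested were called higher and 58.9% were called in either direction (32.6% lower). Fold changes in this comparison can be read against the median of all genes, which was -0.22 with edgeR's scaling and -0.48 with DESeq2's. The decoy receptor Il1r2 was at 1895, 1750, 1518 and 2190 CPM in neutrophil-like cells and at 57.1, 174, 141 and 195 CPM in monocyte/macrophage-like cells. The ranges were far apart, and the log2 fold change was 4.15 ± 0.23 (edgeR adjusted p = 1.63e-17). Il1r2 was also higher per cell, without overlap, with 2.82 to 5.03 UMIs in a neutrophil-like cell and 0.444 to 1.34 in a monocyte/macrophage-like cell.

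The accessory chain Il1rap was at 120, 360, 291 and 321 CPM in neutrophil-like cells and at 14.5, 10.1, 14.6 and 14.1 CPM in monocyte/macrophage-like cells, a log2 fold change of 4.87 ± 0.32 (edgeR adjusted p = 1.62e-15). Its signalling partner Il1r1 was nearly absent from neutrophil-like cells, with 2 UMIs in 896 cells. Neutrophil-like cells therefore carried transcripts of the decoy and of the accessory chain with almost none of the signalling receptor. Il1rap also serves other receptors of the family. Nlrp3 was at 312, 364, 539 and 430 CPM in neutrophil-like cells and at 123, 178, 181 and 150 CPM in monocyte/macrophage-like cells (log2 fold change 1.76 ± 0.22, edgeR adjusted p = 1.49e-08). Per cell, Nlrp3 was at 0.667, 0.832, 1.00 and 0.987 UMIs in neutrophil-like cells and 0.955, 1.38, 1.25 and 0.981 UMIs in monocyte/macrophage-like cells, lower in 3 of 4 libraries and about equal in hucMSC-Exo 2.

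Il1a was scarce, with 1, 12, 5 and 12 UMIs in neutrophil-like cells (12, 17.3, 35.5 and 10.9 CPM) and 15.2, 7.96, 5.70 and 6.12 CPM in monocyte/macrophage-like cells. It was called higher in neutrophil-like cells (log2 fold change 1.59 ± 0.43, edgeR adjusted p = 0.00204), although the ranges overlapped. Il18 lay in the other direction, at 0, 11.6, 0 and 20.9 CPM in neutrophil-like cells and 37.6, 28.4, 30.4 and 42.9 CPM in monocyte/macrophage-like cells. Each monocyte/macrophage-like value of Il18 lay above each neutrophil-like value, yet the log2 fold change of -0.86 ± 0.38 missed the threshold (edgeR adjusted p = 0.0516) and passed it in 5 of 11 alternatives, all negative: DESeq2 (adjusted p = 0.0320), no filter on low counts, without Control 2, without hucMSC-Exo 2 and Leiden clusters. The zeros in Control 1 and hucMSC-Exo 1 allow up to 36.0 and 21.3 CPM. The intervals and limits given here cover counting error only.

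Il1rn was at 288, 851, 787 and 756 CPM in neutrophil-like cells and 316, 1168, 835 and 536 CPM in monocyte/macrophage-like cells. The ranges overlapped and Control 1 was lowest in both classes. The log2 fold change of 0.36 ± 0.22 was not past the threshold (edgeR adjusted p = 0.158), and its sign depends on scaling: the CPM was lower in neutrophil-like cells in 3 of 4 libraries, and the fold change was -0.024 without the filter on low counts. Leaving out Control 1 gave 0.51 (edgeR adjusted p = 0.0222). Per cell, monocyte/macrophage-like cells carried more Il1rn in every library, 2.46, 9.02, 5.78 and 3.51 UMIs against 0.615, 1.94, 1.46 and 1.74.

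**Figure D2:**
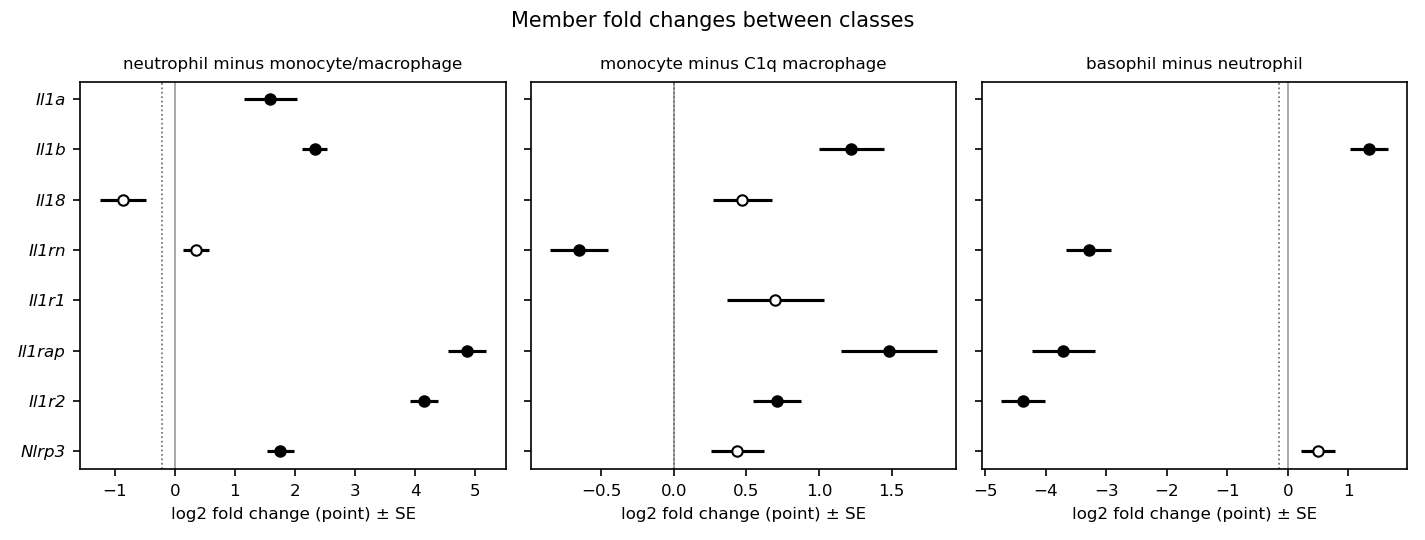
Log2 fold change of each tested gene (x axis, point with SE) in 3 comparisons of classes within libraries, filled where edgeR's adjusted p was under 0.05 and open where it was not, with a dotted line at the median of all genes tested. Neutrophil-like cells exceed monocyte/macrophage-like cells most for Il1rap (4.87) and Il1r2 (4.15), and basophil-like cells fall below neutrophil-like cells for the same genes (-3.71 and -4.38) and for Il1rn (-3.29).

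The balance of antagonist and agonist was measured as the Il1rn share of all Il1rn and Il1b UMIs in a class. In neutrophil-like cells it was 2.77%, 13.7%, 10.5% and 13.0%, and in monocyte/macrophage-like cells 19.9%, 36.3%, 33.2% and 23.4%. The share was lower in neutrophil-like cells in 4 of 4 libraries, by 17.1, 22.6, 22.7 and 10.4 percentage points. The exact two-sided sign-flip permutation test gave p = 0.13, the smallest value that 4 pairs allow. C1q macrophage-like cells stood higher at 19.5%, 42.5%, 46.2% and 37.1%, and monocyte-like cells lower at 20.8%, 15.4%, 8.51% and 10.7%. In Control 1 these 2 classes were close to each other, whereas in the other 3 libraries C1q macrophage-like cells had the larger share.

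Osteoclast-like macrophage cells, tested in the 3 libraries with at least 10 such cells, had Il1rn shares of 59.1% in Control 2, 40.8% in hucMSC-Exo 1 and 25.8% in hucMSC-Exo 2. Their Il1rn was at 1582, 1175 and 696 CPM and their Il1b at 1097, 1707 and 1998 CPM in the same libraries. Summed over cells, antagonist transcripts outnumbered agonist transcripts in Control 2. The median cell, of 75, 44 and 19 cells, held 9, 5 and 2 Il1rn UMIs and 0, 0 and 4 Il1b UMIs. In the same order, 8, 5 and 2 cells held 78.4%, 84.4% and 47.4% of the Il1b UMIs. Compared with C1q macrophage-like cells, 0 of 6 members were called (2.58% of all genes tested, 0.795% higher and 1.79% lower), with a log2 fold change of 0.31 ± 0.12 for Il1rn (edgeR adjusted p = 0.268) and 0.32 ± 0.23 for Il1b (edgeR adjusted p = 0.607). DESeq2 also called 0 members.

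**Figure D3:**
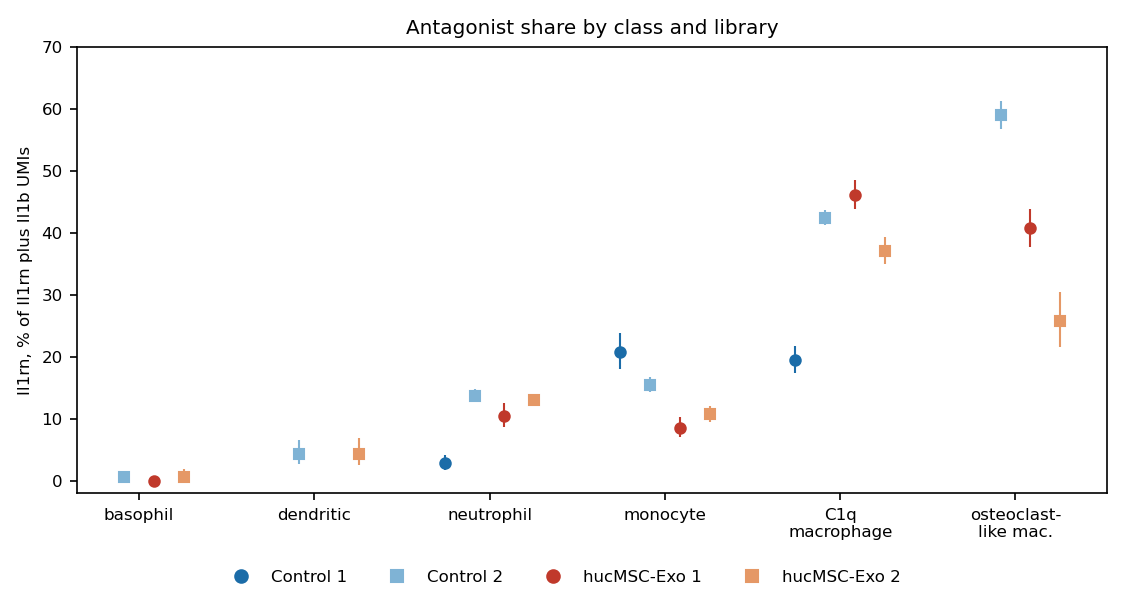
Il1rn as a percentage of Il1rn plus Il1b UMIs (y axis) in 6 gated classes, with 1 point per library and bars for the exact 95% binomial interval. Basophil-like and dendritic-like cells sit under 5%, neutrophil-like cells between 2.77% and 13.7%, and C1q and osteoclast-like macrophage cells between 19.5% and 59.1%.

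Both transcripts were found in the same cell in part of the neutrophil-like and C1q macrophage-like cells. Among neutrophil-like cells thinned to 1000 UMIs, 23.7%, 34.5%, 43.2% and 28.2% had both Il1b and Il1rn, and 73.7%, 45.3%, 44.6% and 44.4% had Il1b alone. Il1rn without Il1b was rare there, at 0% to 12.7%, and most of these cells had Il1b. Il1rn was seen in 24.3%, 43.2%, 49.2% and 38.9% of those with Il1b and in 0%, 41.7%, 33.3% and 46.5% of those without. In Control 1 just 2.63% of 38 cells had neither transcript and 0% had Il1rn alone. In hucMSC-Exo 1 these were 8.11% and 4.05% of 74 cells. The shares of 0% and 33.3% among cells without Il1b thus rest on very few cells. C1q macrophage-like cells had both in 9.09%, 17.6%, 17.9% and 19.5% and Il1rn alone in 8.18%, 31.4%, 24.6% and 20.1%. There Il1rn was seen more often with Il1b in every library, in 26.3%, 55.4%, 57.1% and 51.5% against 12.5%, 46.0%, 35.9% and 32.4%. Basophil-like cells had Il1b alone in 83.3%, 90.0% and 64.7% of cells in Control 2, hucMSC-Exo 1 and hucMSC-Exo 2.

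**Figure D4:**
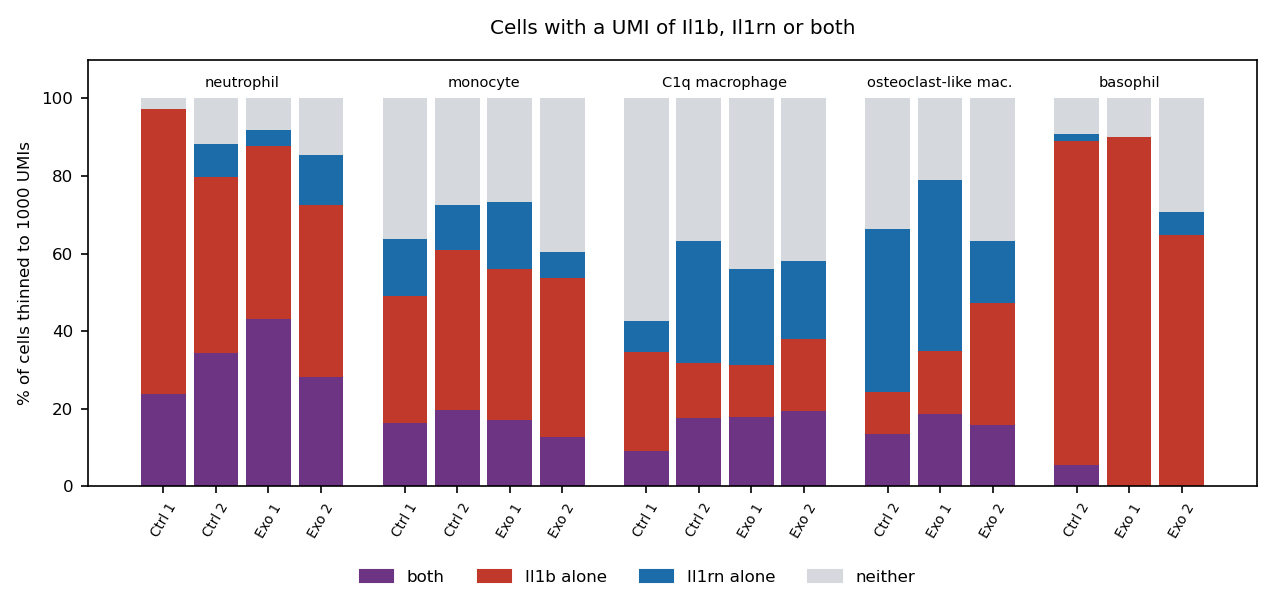
Percentage of cells thinned to 1000 UMIs (y axis) with a UMI of both Il1b and Il1rn, of Il1b alone, of Il1rn alone or of neither, with 1 stacked bar per library in 5 gated classes. Neutrophil-like bars are made up mostly of Il1b alone and both, whereas C1q macrophage-like bars hold 8.18% to 31.4% of cells with Il1rn alone.

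Within the monocyte/macrophage gate, monocyte-like and C1q macrophage-like cells differed. Il1b was at 1467, 3633, 4127 and 2581 CPM in monocyte-like cells and at 1199, 1695, 1005 and 1119 CPM in C1q macrophage-like cells. It was higher in monocyte-like cells in 4 of 4 libraries, least so in Control 1, with a log2 fold change of 1.22 ± 0.22 (edgeR adjusted p = 0.00203). In this comparison 4 of 7 members were called, 3 higher and 1 lower, against 19.3% of all genes tested (9.37% higher and 9.96% lower). Il1rap, at 15.4 to 27.2 CPM against 5.89 to 11.6 CPM, was also higher in monocyte-like cells (1.48 ± 0.33, edgeR adjusted p = 0.00778).

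Il1r2 was at 104, 222, 127 and 239 CPM in monocyte-like cells and 41.1, 132, 115 and 173 CPM in C1q macrophage-like cells (log2 fold change 0.71 ± 0.16, edgeR adjusted p = 0.0089). Most C1q macrophage-like cells had none, with a median of 0 Il1r2 UMIs in every library. The 10% of cells with the most Il1r2 held 78.0% to 100% of its UMIs there, compared with 58.4% to 76.2% in monocyte-like cells. Il1rn was lower in monocyte-like cells, at 385, 664, 384 and 309 CPM against 291, 1251, 862 and 660 CPM (-0.65 ± 0.20, edgeR adjusted p = 0.0352). Control 1 was the exception in direction for Il1rn. Without hucMSC-Exo 2 only 1 of the members, Il1b, was called, and without Control 2 the adjusted p was 0.0569 for Il1r2 and 0.174 for Il1rn. The Il1rn call was lost in 6 of 11 alternatives, among them leaving out hucMSC-Exo 1, all deposited cells and a stricter gate, and its log2 fold change ranged from -2.02 to -0.46. With cells grouped by Leiden clustering in place of gates, the log2 fold change was -0.042 for Il1r2 and -2.02 for Il1rn.

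Few cells passed the dendritic-like gate, and just Control 2 (13 cells) and hucMSC-Exo 2 (12 cells) had enough of them. The 1226 unassigned cells, with H2-Ab1, H2-Eb1, H2-Aa and Cd86 among their leading genes, held 25.8% of the Il1r2 UMIs. Whether they include dendritic cells was not tested. In the gated dendritic-like cells Il1r2 was at 1489 and 2100 CPM, near the neutrophil-like level, while S100a8 was at 0 and 7.45 CPM. Ccr7 and the MHC class II gene H2-DMb2 were among their leading genes, but both are gate markers of this class, so their lead follows from the gating. Il1b was at 3182 and 2651 CPM and Il1rn at 146 and 119 CPM, which gave Il1rn shares of 4.37% and 4.30%. Against monocyte/macrophage-like cells of the same libraries 3 of 7 members were called (17.6% of all genes tested, 7.35% higher and 10.2% lower): Il1r2 higher by 3.43 ± 0.29 on the log2 scale, Il1rn lower at -2.46 ± 0.33 and Il1b higher by 0.78 ± 0.27 (edgeR adjusted p = 4.99e-30, 6.02e-12 and 0.0257). The median of all genes was -0.24, and the fit had 1 residual degree of freedom from 2 libraries.

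Basophil-like cells had the highest Il1b of the classes described, at 17096, 13937 and 8422 CPM in Control 2 (54 cells), hucMSC-Exo 1 (20 cells) and hucMSC-Exo 2 (17 cells). That is 62.9, 35.0 and 26.6 UMIs per cell, at a median depth of 3275 UMIs. Each of these levels and means exceeded the neutrophil-like value of the same library. The median basophil-like cell held 56, 27.5 and 4 Il1b UMIs, against 6, 7 and 6 in neutrophil-like cells, so that in hucMSC-Exo 2 it lay below, and there 2 of 17 basophil-like cells held 51.3% of the Il1b UMIs. Il1rn was at 106, 0 and 55.9 CPM in the same libraries, and the Il1rn share was 0.615%, 0% and 0.659%. The decoy and the accessory chain were low as well, Il1r2 at 39.8 to 85.6 CPM and Il1rap at 10.1 to 55.9 CPM, while Nlrp3 was at 594, 498 and 466 CPM.

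Set against neutrophil-like cells, a comparison added after seeing the data, 4 of 5 members were called in basophil-like cells, against 58.1% of all genes tested (27.2% higher and 30.8% lower). Il1b was higher (log2 fold change 1.34 ± 0.31, edgeR adjusted p = 4.51e-05). Il1rn, Il1rap and Il1r2 were lower, at -3.29 ± 0.37, -3.71 ± 0.52 and -4.38 ± 0.37 (edgeR adjusted p = 2.10e-17, 1.02e-11 and 7.51e-31). The median of all genes was -0.15. Without the filter on low counts the Il1b call was lost (0.70, edgeR adjusted p = 0.0720). Basophil-like cells of hucMSC-Exo 2 held S100a8 at 1267 CPM, against 19.9 and 90.6 CPM in the other 2 libraries, and its part in the lower Il1b there was not tested.

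The signalling receptor Il1r1 was highest in IL-17 γδ T-like cells, the γδ T cells of the skin that produce IL-17, at 146, 86.5, 71.4 and 112 CPM. Among the other T cell classes it was lower, with αβ T-like cells at 6.37, 14.9, 26.2 and 31.6 CPM and DETC-like cells at 6.5, 9.33, 11.8 and 47.2 CPM, ranges that overlapped each other. Every IL-17 γδ T-like value lay above all of these, and the log2 fold change against αβ T-like cells was 2.23 ± 0.25 (edgeR adjusted p = 5.14e-07). Il1r1 was seen in 30%, 32.7%, 25% and 40.4% of IL-17 γδ T-like cells at a median of 4754 UMIs, and in 0% to 1.32% of neutrophil-like cells, the level of free RNA for this gene. Thinned to 1000 UMIs, 13.3%, 13.5%, 7.61% and 13.5% of IL-17 γδ T-like cells had a UMI.

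These cells had almost no ligand of their own, with 3 Il1b UMIs in 419 cells. The decoy ran opposite to the receptor. Il1r2 was at 6.93, 25.2, 31.0 and 37.9 CPM in IL-17 γδ T-like cells and at 44.6, 155, 194 and 121 CPM in αβ T-like cells (-2.16 ± 0.21, edgeR adjusted p = 4.23e-08). Both members that passed the filter were thus called in this comparison, 1 in each direction, against 20.8% of all genes tested (10.9% higher and 9.94% lower). S100a8 reached 165 CPM in αβ T-like cells of Control 2 and 2.12 to 97.3 CPM in the other 3 libraries, and its part in the Il1r2 level was not tested.

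αβ T-like cells with a Foxp3 UMI, the marker of regulatory T cells, had Il1r2 at 20.1, 238, 239 and 233 CPM, and the other αβ T-like cells at 51.1, 119, 178 and 82.7 CPM. Control 1, with 18 Foxp3+ cells and 2 Il1r2 UMIs, went against the other 3 libraries. The comparison, added after seeing the data, called 0 of 2 members (12.6% of all genes tested, 5.90% higher and 6.66% lower), with a log2 fold change of 0.71 ± 0.24 for Il1r2 (edgeR adjusted p = 0.0699). Without Control 1 it was 0.85 and past the threshold (edgeR adjusted p = 0.00755).

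**Figure D5:**
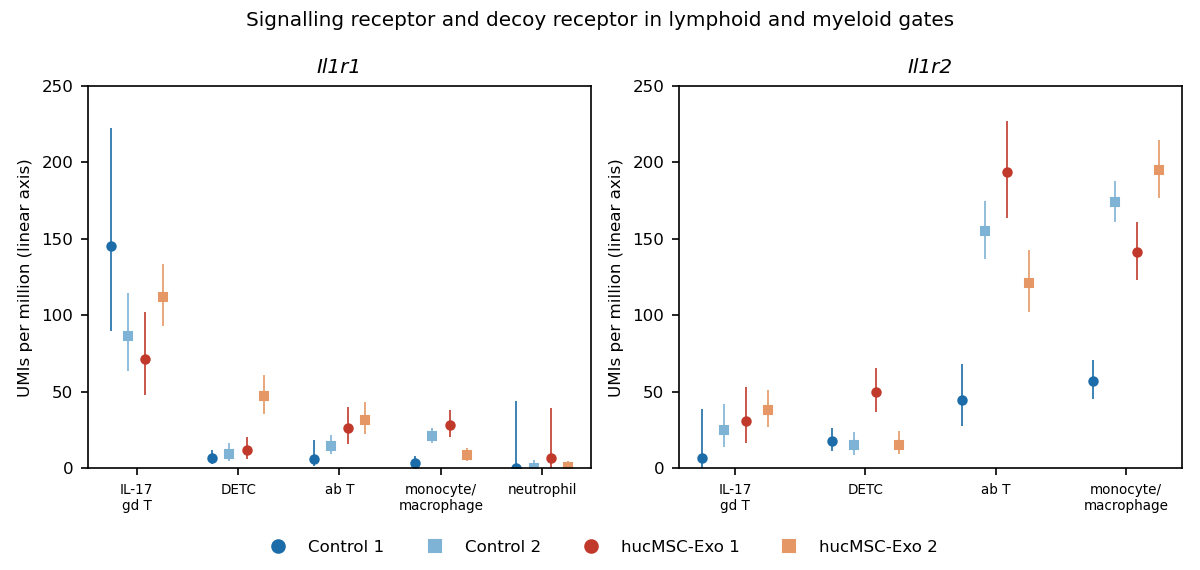
Level of the signalling receptor Il1r1 (left) and the decoy Il1r2 (right) in CPM on linear axes, with 1 point per library and bars for the exact 95% Poisson interval. Il1r1 is highest in IL-17 γδ T-like cells (71.4 to 146 CPM), where Il1r2 is low (6.93 to 37.9 CPM); the neutrophil-like Il1r2 level (1518 to 2190 CPM) is beyond the axis and is not drawn.

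Neutrophil-like cells with at least 3 of 12 interferon-response genes were compared with the rest in the 3 libraries that had at least 10 of them. Il1b was at 10654, 5197 and 4743 CPM in the interferon-high cells and 9794, 5423 and 5233 CPM in the others, in Control 1, Control 2 and hucMSC-Exo 2. The values were close within each library (log2 fold change -0.03 ± 0.11). Il1rn was at 389, 902 and 805 CPM in the interferon-high cells and 229, 833 and 732 CPM in the others, higher in all 3 libraries and most so in Control 1, but the log2 fold change of 0.19 ± 0.17 was not past the threshold. In this comparison 0 of 5 members were called by edgeR or DESeq2, where 2.08% of all genes tested were called.

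Between the groups, 0 of 5 members were called in neutrophil-like cells, 0 of 8 in monocyte/macrophage-like cells, 0 of 2 in IL-17 γδ T-like cells and 0 of 3 in αβ T-like cells. The background was 0% in each, since edgeR and DESeq2 called 0 of 3433, 8190, 4867 and 7128 genes at an adjusted p under 0.05. At an unadjusted p under 0.05, edgeR gave 39, 69, 141 and 236 genes.

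In neutrophil-like cells the log2 fold change of hucMSC-Exo over Control was -0.18 ± 0.44 for Il1b, 0.46 ± 0.50 for Il1rn and 0.62 ± 0.41 for Nlrp3. Il1rn was decided by single Control libraries: without Control 2 it was 1.81 (edgeR adjusted p = 0.0059, with the lone Control library assumed to vary like the other group) and without Control 1 it was -0.14. Control 1 had just 39 neutrophil-like cells and 24 Il1rn UMIs. In monocyte/macrophage-like cells Il1b differed by 0.10 ± 0.29 and Il1rn by -0.05 ± 0.55, and the 2 Control values of Il1rn, 316 and 1168 CPM, lay on either side of the hucMSC-Exo values of 835 and 536 CPM. Without Control 2 the Il1rn fold change was 1.18, and without Control 1 -0.70.

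Il1r1 in IL-17 γδ T-like cells differed by -0.15 ± 0.35. In αβ T-like cells both hucMSC-Exo values of Il1r1 lay above both Control values, with a log2 fold change of 1.25 ± 0.41 that did not pass over all genes (edgeR's quasi-likelihood test, unadjusted p = 0.0144). Without Control 2 it was 2.21 (edgeR adjusted p = 0.0435). Cd163l1, a marker of the Il1r1-high IL-17 γδ T-like class, was at 0, 11.9, 19.6 and 26.5 CPM in the αβ T gate, the same order of libraries as Il1r1, against 284 to 456 CPM in IL-17 γδ T-like cells, and its part in the difference was not tested. The Il1rn share of Il1rn plus Il1b UMIs was 8.23% ± 7.72 in Control and 11.7% ± 1.78 in hucMSC-Exo neutrophil-like cells (SD, n = 2), and 28.1% ± 11.6 and 28.3% ± 6.92 in monocyte/macrophage-like cells. The exact two-sided permutation test gave p = 1 for each, where 3 splits allow no value under 0.33. Dendritic-like cells had 1 usable library a group, and their members were not tested between groups.

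Other genes of the pathway were counted from 6 lists. Between neutrophil-like and monocyte/macrophage-like cells, 5 of 11 tested inflammasome and pyroptosis genes were higher and 2 lower, with a list median of -0.11 against -0.22 for all genes. Txnip, which can bind NLRP3, was higher by 3.14 on the log2 scale, the DNA sensor Aim2 by 2.10, and the pyrin gene Mefv and the caspase gene Casp4 by 1.76 each. Of the IL-1 response genes, 7 of 9 were higher and 1 lower (median 1.11), including the NF-κB inhibitor Nfkbia at 2.25, the chemokine Cxcl2 at 2.19 and Nfkbiz at 1.90. Among 9 receptor signalling genes 3 were higher and 0 lower: the inhibitory kinase homologue Irak3 at 2.72, Irak2 at 1.54 and the adaptor Myd88 at 0.79.

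Il1f9, which encodes IL-36γ, was higher in neutrophil-like cells at 8.11, 1 of 2 tested in its list, and the IL-18 receptor chain Il18rap at 6.39 was the 1 gene tested in its own. Of 3 proteases tested, 0 were higher and 2 lower, Capn2 at -2.88 and Casp8 at -1.45. All these calls are by edgeR's adjusted p, and the share of all genes called was as given for this comparison above.

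In IL-17 γδ T-like against αβ T-like cells, 8 of 9 response genes were higher and 0 lower (median 1.18, all genes -0.02), where 10.9% of all genes tested were higher and 9.94% lower, among them Ptgs2 at 3.00, Tnf at 1.87, Cxcl2 at 1.52 and Nfkbia at 1.18. Of 8 inflammasome genes 0 were higher and 3 lower, with Aim2 at -2.05, the adaptor Pycard at -0.84 and Txnip at -0.82. The IL-33 receptor gene Il1rl1 was lower at -6.04. In monocyte-like against C1q macrophage-like cells, where 9.37% of all genes tested were higher and 9.96% lower, 1 of 8 response genes was higher (Cxcl2 at 0.61) and 3 lower, Cxcl1 at -1.88, Tnf at -1.41 and Tnfaip3 at -0.74. In basophil-like against neutrophil-like cells 7 of 9 response genes were higher and 0 lower, against 27.2% of all genes tested higher and 30.8% lower, with Tnfaip3 at 3.20, Ptgs2 at 2.24 and Nfkbiz at 2.04, and Il1rl1 and Il18r1 were higher at 5.37 and 4.56. In the 4 comparisons between groups, 0 genes of any list were called.

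The genes whose levels ran most like each member over 43 library and class sums of 13 classes are given as a description, since those sums share libraries and depth. For Il1b they were Alox5ap (Pearson's r of log2 CPM 0.967), Emilin2, Ifitm2, Ier3 and Lilr4b. Il1rn ran with Thbs1 (0.923), Pla2g7, Pira2, Tgm2 and Clec4n. For Il1rap the list was Igfbp6 (0.914), Lrg1, Mirt2, Trem1 and Il1f9, and for Il1r2 it was Mcemp1 (0.852), AA467197, Trem1, Ddx6 and Spag9. Nlrp3 was most like Emilin2 (0.934), Lilrb4a, Lilr4b and Plek. Il1r1 was most like Blk (0.763) and 5830411N06Rik, which are gate markers of the IL-17 γδ T-like class as Trem1 is of the neutrophil-like class, and then Cryba4, Ppp1r14c and Abi3bp.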

How the data were processed

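The authors sequenced 10x 3′ libraries and deposited count matrices of UMIs per gene and cell, made with Cell Ranger 6.1.2 on mm10 per the labels and methods. Cells were filtered to 200 to 3000 genes and at most 10% mitochondrial UMIs, and gated by marker lists (at least 3 markers, a lead of 10 percentage points). Counts were summed per library and class with at least 10 cells and tested with edgeR 4.0.16 (quasi-likelihood, TMM, filterByExpr, Benjamini-Hochberg over all genes, threshold 0.05), with library as a block between classes. DESeq2 1.42.0, no filter, no block, left-out libraries, all deposited cells, a stricter gate, Leiden clusters (scanpy 1.11.5) and a replicate block were alternatives. The test was tried on simulated data with the same spread for every gene. Between groups in monocyte/macrophage-like cells it recovered 28 of 94 genes changed by 1 on the log2 scale and 84 of 89 changed by 2. Between neutrophil-like and monocyte/macrophage-like cells it recovered 77 of 100 and 99 of 100. Recovery of more variable genes was not measured. Scrublet marked 0.466% of cells, and these were kept. The paper states that it removed potential doublets with DoubletFinder. Whether the deposited cells had passed that step, or Scrublet missed doublets, was not tested. The genes and lists were chosen with earlier results of these data known. Named pathway genes are among the 4 of smallest p per list and comparison, and likeness is by the 5 highest correlations of log2(CPM + 10), of which 1 gene is not reported here. Each library is 1 mouse, so p-values between groups rest on the spread between mice of a group. Between classes they rest on how the difference of the classes varied between mice. edgeR draws the spread of a gene in part from other genes, so p-values from few libraries do not measure that gene's own spread alone.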

Additional observations from a re-analysis of the deposited data

How the results depend on the processing

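Of 338 alternative fold changes, 297 kept their direction and side of the threshold, 10 passed it, 12 lost it and 19 changed sign. The Il1rn share between groups ranged from -1.97 to 8.95 percentage points in neutrophil-like cells and from -7.99 to 8.39 in monocyte/macrophage-like cells with 1 library left out, and in the latter was -1.47 with all deposited cells and -4.90 with Leiden clusters. Members called between groups ranged from 0 to 2 in neutrophil-like and 0 to 3 in αβ T-like cells with 1 library left out (the highest without Control 2 in each), and 1 was called in αβ T-like cells without the filter on low counts. In monocyte-like against C1q macrophage-like cells 2 members were called without the library block, and 1 to 4 with 1 library left out. In IL-17 γδ T-like against αβ T-like cells 5 were called without the filter. For Foxp3+ cells 1 member was called without the filter and with Leiden clusters, and 0 to 1 with 1 library left out. The causes were not tested.

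Thinning moved the mean share of cells with a UMI to 39.6% for Il1b and 35.8% for Il1rn in monocyte/macrophage-like cells, 38.7% for Il1rn and 76.8% for Il1r2 in neutrophil-like cells, and 12% for Il1r1 in IL-17 γδ T-like cells, since thinning removes UMIs.

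Sign changes between groups were Il1b in neutrophil-like cells at 0.036 with all deposited cells and -0.46 to 0.16 with 1 library left out, Il1rn there at -0.14 (without Control 1) to 1.81 (without Control 2), Il1b in monocyte/macrophage-like cells at -0.063 with the stricter gate and -0.20 to 0.48 with 1 library left out, Il1rn there at 0.058 with all deposited cells and -0.70 (without Control 1) to 1.18 (without Control 2), and Il1r1 in IL-17 γδ T-like cells at 0.40 with Leiden clusters and -0.61 to 0.15 with 1 library left out. Between classes they were Il1rn at -0.024 (neutrophil-like against monocyte/macrophage-like) and Nlrp3 at -0.15 (basophil-like against neutrophil-like) without the filter, Il1r2 at -0.042 (monocyte-like against C1q macrophage-like) with Leiden clusters, and in interferon-high neutrophil-like cells Il1rn at -0.027 with the stricter gate and Il1b at -0.091 to 0.027 with 1 library left out. The causes were not tested.

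Counts over all genes reached 84, 33, 49 and 296 between groups in neutrophil-like, monocyte/macrophage-like, IL-17 γδ T-like and αβ T-like cells. Between classes they ranged from 476 to 1517 (monocyte-like against C1q macrophage-like), 29 to 361 (osteoclast-like), 507 to 1275 (dendritic-like), 669 to 1583 (IL-17 γδ T-like), 20 to 71 (interferon-high), 544 to 1605 (basophil-like) and 304 to 1073 (Foxp3+).

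Replicate numbers are names here. The log2 CPM of replicate 1 less that of replicate 2 was taken per gene in each group. These differences in Control and in hucMSC-Exo correlated over genes at -0.06, -0.26, -0.03 and 0.09 in the 4 classes. With the replicate block, 0 members were called in each class, and Il1rn in monocyte/macrophage-like cells was 0.18, as it was with the crossed pairing, added after seeing the data. The block gave 0, 0, 0 and 6 genes and the crossed pairing 0, 14, 0 and 27. The doublet alternative left out just 0.466% of cells and is uninformative. Dendritic-like cells could not be fitted with the stricter gate or Leiden clusters. Depth limits Il1a and Il18, which had 176 and 493 UMIs.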
